A study of Mus musculus with 4 samples.

Results

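Integrins are the cell surface receptors through which chondrocytes hold on to collagen, fibronectin and laminin, and 10 of their subunit genes were followed here in cultured mouse rib chondrocytes with and without Senp6, which encodes a protease that removes SUMO chains from proteins. The genes were chosen by symbol as the receptor subunits known from cartilage and mesenchyme, namely Itga1, Itga2, Itga3, Itga5, Itga6, Itga10, Itga11, Itgav, Itgb1 and Itgb3. They are 10 of the 18298 genes that any of the samples had a read for, and all 10 were among the 14123 genes kept by the filter of at least 10 reads in at least 2 samples. The 2 mutant samples (Senp6-Mut) carried Dermo1-Cre and the floxed Senp6f/f alleles, and the 2 control samples (WT) carried Senp6f/f without Cre. All 4 samples were passage 1 cultures of rib cartilage cells from E18.5 embryos on the C57BL/6 background, and the labels give no further treatment. Dermo1-Cre is expressed from the Twist2 locus in the mesenchymal progenitors of cartilage and bone, so cells of other origin in the rib dissection would keep Senp6. The labels do not say whether the samples came from separate embryos or pools, so p values measure the spread between these samples only.

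An integrin is a pair of 1 alpha and 1 beta chain, and the alpha chain largely sets what the receptor binds. Itga1, Itga2, Itga10 and Itga11 pair with Itgb1 to bind collagens, Itga10 being the form typical of cartilage and Itga11 the form typical of mesenchymal cells. Itga5 with Itgb1 is the main fibronectin receptor, and Itgav pairs with several beta chains, Itgb3 among them, to bind fibronectin, vitronectin and other proteins that hold an RGD motif. Itga3 and Itga6 pair with Itgb1 to bind laminins. In cartilage, signals through Itgb1 are known to be needed for chondrocyte shape, division and the ordering of growth plate columns.

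The files hold no sequence, so the promoters of 3 members were taken from RefSeq on the build GRCm38.p6, each with 250 bases before and 50 bases after the start of transcription. The table used matched 8 of the 10 members, with 9 promoters, and had no entry for Itga6 and Itgb3. Itga10 and Itga11 are shown as the cartilage type and the mesenchymal type of collagen receptor, and Itga3, which has 2 starts, as the member with the largest positive difference between the genotypes. Each is printed 5′ to 3′ on the strand of the gene, in the order Itga10 (chr3:96645334-96645633, forward strand), Itga11 (chr9:62677605-62677904, forward strand), the upstream start of Itga3 (chr11:95076665-95076964, reverse strand) and the downstream start of Itga3 (chr11:95069149-95069448, reverse strand). Capitals mark every match, on either strand, to 4 short motifs: the AP-1 site TGANTCA, the TEAD core GGAATG, the SOX core ACAAAG and the SP1 GC box GGGCGG.
Itga10: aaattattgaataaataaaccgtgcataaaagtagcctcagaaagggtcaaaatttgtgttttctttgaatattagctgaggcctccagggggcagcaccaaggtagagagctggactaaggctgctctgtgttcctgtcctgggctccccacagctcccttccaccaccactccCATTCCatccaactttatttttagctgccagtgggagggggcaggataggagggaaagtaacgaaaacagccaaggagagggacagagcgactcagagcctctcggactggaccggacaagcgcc
Itga11: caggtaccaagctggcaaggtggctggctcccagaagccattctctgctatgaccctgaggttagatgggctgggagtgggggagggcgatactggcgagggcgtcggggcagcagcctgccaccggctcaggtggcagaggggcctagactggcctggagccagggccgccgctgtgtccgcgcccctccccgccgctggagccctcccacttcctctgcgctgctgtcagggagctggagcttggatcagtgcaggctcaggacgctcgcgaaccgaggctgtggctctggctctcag
Itga3 upstream: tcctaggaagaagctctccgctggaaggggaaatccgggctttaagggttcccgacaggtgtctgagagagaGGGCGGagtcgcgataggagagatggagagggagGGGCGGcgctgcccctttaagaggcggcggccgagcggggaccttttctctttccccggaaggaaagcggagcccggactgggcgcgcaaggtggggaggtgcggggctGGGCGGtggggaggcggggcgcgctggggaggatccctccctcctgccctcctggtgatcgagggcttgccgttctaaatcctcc
Itga3 downstream: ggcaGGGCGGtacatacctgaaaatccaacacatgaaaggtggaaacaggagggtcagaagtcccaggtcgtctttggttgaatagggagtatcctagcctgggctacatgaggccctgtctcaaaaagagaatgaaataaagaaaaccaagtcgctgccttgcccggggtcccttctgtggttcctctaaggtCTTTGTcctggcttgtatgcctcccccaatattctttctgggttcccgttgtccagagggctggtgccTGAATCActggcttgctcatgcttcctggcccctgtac

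The Itga10 promoter had a GC content of 51.0% with 6 CpG, and held 1 TEAD core, read on the reverse strand from base 176 of the window, and none of the other 3 motifs. The Itga11 promoter had a GC content of 68.0% with 16 CpG and no match to any of the 4 motifs. The upstream Itga3 promoter held 3 GC boxes, and the downstream one held 1 GC box, 1 SOX core and 1 AP-1 site. Among the 32851 promoters of the table, 7.81% held the AP-1 site, 14.7% the TEAD core, 18.7% the SOX core and 35.7% the GC box. Of the 9 promoters of the members, 1, 2, 2 and 6 held them in that order. A match describes the letters of the window and not a bound site.

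Between 21.02 M and 30.99 M reads (M for mega) were counted on genes per sample. Col1a1, the main collagen of bone and of dedifferentiating chondrocytes, took 1.56% to 3.42% of them, the largest share in every sample. Senp6 itself had an RPKM (reads scaled to the length of the gene and to all reads counted on genes) of 10.8 and 18.02 in WT replicates 1 and 2 and of 12.02 and 8.07 in Senp6-Mut replicates 1 and 2, so the groups overlapped at the level of the whole gene (edgeR adjusted p = 0.410). Reads of exons left after the deletion still count on the gene, and counts per exon were not analysed here. Xist, the RNA of the inactive X of female cells, was read 11354 times in Senp6-Mut replicate 2 and at most 5 times in each of the other 3 samples, so only that sample held many female cells.

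In the WT cultures Itgb1, the common partner of most alpha chains, was the most abundant member, at an RPKM of 173 ± 18.5 (SD, n = 2). Itga5 followed at 90.2 ± 17.0 (SD, n = 2) and Itga11 at 58.6 ± 6.22 (SD, n = 2). Below them came Itgav at 25.1 ± 3.92 (SD, n = 2) and Itga3 at 22.2 ± 7.396 (SD, n = 2), whose ranges overlapped. Itga6 at a mean RPKM of 10.9 stood apart from both neighbours, while Itga1 at 6.86 and Itgb3 at 5.95 overlapped. Itga10 was low, at 3.44 ± 0.749 (SD, n = 2), so transcripts of the cartilage collagen receptor were outnumbered by those of the mesenchymal one. Itga2 was lowest at a mean RPKM of 0.458, from 43 and 48 reads. In the mutants the order was the same but for 2 exchanges, with Itga3 (mean RPKM 45.0) above Itgav (33.9) and without overlap, and Itgb3 (5.12) above Itga1 (4.24) with overlap. Reads covered 90.9% to 100% of the length of 9 members in every sample, and 54.7% to 78.8% of Itga2.

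**Figure D1:**
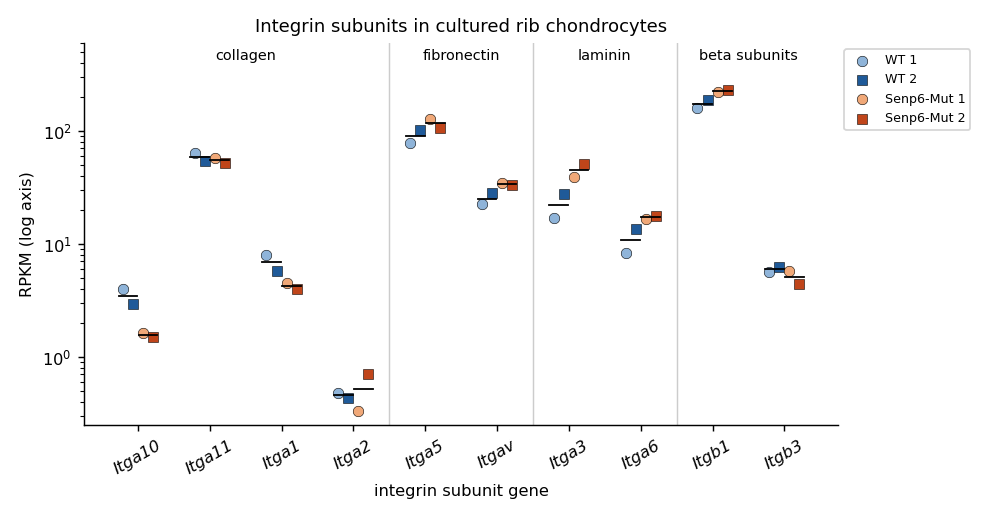
RPKM of the 10 integrin subunit genes (log axis) in the 2 WT and 2 Senp6-Mut samples, grouped by ligand, with 1 point per sample and a bar at the mean of each group. The Senp6-Mut points lie below both WT points for Itga10 and Itga1, above both for Itga5, Itgav, Itga3, Itga6 and Itgb1, and overlap them for Itga11, Itga2 and Itgb3.

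The comparison of Senp6-Mut with WT asks whether the receptors for the 3 kinds of matrix differed between the genotypes. Only the mutants carried Dermo1-Cre, so effects of Cre and of Senp6 loss cannot be told apart. Sex was not balanced either, as the only sample with many female cells was Senp6-Mut replicate 2. Both mutant samples were above both WT samples in RPKM for 5 members (Itga3, Itga5, Itga6, Itgav and Itgb1), where 28.3% of all tested genes lay that way. Both mutants were below both controls for 2 members (Itga1 and Itga10), against 19.2% of all tested genes, and the groups overlapped for Itga2, Itga11 and Itgb3. With the RPKM rescaled by the TMM factors the number below was 3, as Itgb3 joined them, and the number above stayed at 5. The share of all genes was not computed on that scale. The quasi-likelihood test of edgeR with Benjamini-Hochberg adjustment over all tested genes called 0 members at an adjusted p under 0.05, and it called 0% of all genes in either direction. At an unadjusted p under 0.05 edgeR had 4 members higher (Itga3, Itga6, Itgav and Itgb1), where 9.29% of all genes were, and 2 lower (Itga1 and Itga10), where 6.28% were. DESeq2 in place of edgeR called Itga3 higher, against 3.11% of all genes, and Itga1 and Itga10 lower, against 1.89%. In bulk RNA a lower level from fewer cells of a type and one from less RNA per cell cannot be told apart.

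The members' differences leaned on which WT sample was used. For all 7 members whose groups did not overlap, WT replicate 2 lay between WT replicate 1 and the mutants, as it did for 71.1% of the 6704 tested genes without overlap. Without WT replicate 2, edgeR called 5 members (Itga1, Itga3, Itga6, Itga10 and Itgav), where it called 20% of all genes in either direction. Without WT replicate 1 it called Itga3 and Itga10, against 4.77% of all genes. Without Senp6-Mut replicate 1 it again called Itga3 and Itga10, against 3.01%. Without Senp6-Mut replicate 2 it called 0 members and 1.01% of all genes. In these fits the group with a single sample left is assumed to vary like the other group.

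Among the collagen receptors, Itga10 had the smallest p of the 10 members. Its RPKM was 3.97 and 2.91 in WT replicates 1 and 2 and 1.62 and 1.50 in Senp6-Mut replicates 1 and 2, from 213 to 421 reads. Both mutants were well below both controls and close to each other. In edgeR the log2 fold change was -1.19 ± 0.227 (standard error), at an adjusted p of 0.0959, with a 95% interval from -1.73 to -0.64. With DESeq2 the adjusted p was 0.00127, and it was 0.0348 in edgeR without a filter on low counts.

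Itga1, a collagen receptor chain found on many mesenchymal cells, had an RPKM of 7.93 and 5.80 in WT and of 4.46 and 4.02 in Senp6-Mut, replicates 1 and 2. The mutants were again below the controls, but the gap between the groups was smaller than the gap between the WT samples. The log2 fold change was -0.74 (standard error 0.199, edgeR adjusted p = 0.159), and the adjusted p was 0.0336 with DESeq2. In the GRCm38 annotation Pelo lies inside Itga1 on the same strand without sharing an exon. The RPKM of Pelo was 17.8 and 17.5 in WT and 13.8 and 15.6 in Senp6-Mut, so it too was below in both mutants. Predicted genes share exons with Itga1, Itga10 and Itgav there and have no entry of their own in the files, so reads of shared exons cannot be told apart.

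Itga11, the most abundant collagen-binding chain, had an RPKM of 63.0 and 54.2 in WT and of 57.9 and 52.0 in Senp6-Mut, so the samples of the groups interleaved. Its log2 fold change of -0.14 had a 95% interval from -0.50 to 0.22 (edgeR adjusted p = 0.725). It was 0.0022 without WT replicate 1. Itga2, a collagen receptor best known from platelets and epithelia, had an RPKM of 0.483 and 0.434 in WT and of 0.335 and 0.702 in Senp6-Mut, from 43 to 84 reads. The mutants lay on either side of the controls, and the log2 fold change of 0.13 had a 95% interval from -0.88 to 1.13.

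The ratio of Itga10 to Itga11 within a sample does not depend on the scaling between samples. It was 0.0631 and 0.0538 in WT replicates 1 and 2 and 0.0280 and 0.0288 in Senp6-Mut replicates 1 and 2. The mutant ratios were below the control ratios, by 1.04 on the log2 scale, and leaving out any sample kept that difference between -1.15 and -0.92. The exact permutation test over samples (two-sided, n = 2 against 2) gave p = 0.3333, the smallest value it can give with this design.

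Of the fibronectin receptors, Itga5 had an RPKM of 78.2 and 102 in WT and of 128 and 106 in Senp6-Mut, replicates 1 and 2. WT replicate 2 and Senp6-Mut replicate 2 were almost level, and edgeR put the difference at 0.34 ± 0.172 (standard error) on the log2 scale, at an adjusted p of 0.416 and with a 95% interval from -0.08 to 0.75. Itgav, the shared chain of the vitronectin-type receptors, had an RPKM of 22.3 and 27.9 in WT and of 34.5 and 33.2 in Senp6-Mut. The mutants lay close together above both controls, and edgeR put the difference at 0.39 ± 0.141 (standard error) on the log2 scale, at an adjusted p of 0.248.

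The laminin receptors held the largest positive difference among the members. Itga3 had an RPKM of 17.0 and 27.4 in WT and of 39.3 and 50.7 in Senp6-Mut, from 1738 to 6978 reads. Both mutants were above both controls, and the mean was 2.03 times that of WT. The log2 fold change was 0.98 (standard error 0.231, 95% interval 0.43 to 1.53, edgeR adjusted p = 0.125), and the adjusted p was 0.00196 with DESeq2. It was 0.69 without WT replicate 1 and 1.31 without WT replicate 2.

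Itga6, whose product also forms the hemidesmosome receptor of epithelia together with Itgb4, had an RPKM of 8.23 and 13.6 in WT and of 16.7 and 17.6 in Senp6-Mut. The WT samples differed by a factor of 1.65, more than the 1.57 between the group means. The log2 fold change was 0.61 (standard error 0.220, edgeR adjusted p = 0.251), and it ranged from 0.31 without WT replicate 1 to 0.96 without WT replicate 2.

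Of the beta chains, Itgb1 had an RPKM of 160 and 186 in WT and of 221 and 230 in Senp6-Mut, from 14096 to 28710 reads, the most of any member. Both mutants were above both controls by a small amount, and edgeR put the difference at 0.34 ± 0.129 (standard error) on the log2 scale, at an adjusted p of 0.271. Leaving out a sample kept it between 0.26 and 0.40. Itgb3, the partner of Itgav in osteoclasts and endothelium, had an RPKM of 5.65 and 6.26 in WT and of 5.80 and 4.45 in Senp6-Mut. The first mutant lay between the controls, and the log2 fold change was -0.25 (95% interval -0.68 to 0.17, edgeR adjusted p = 0.555).

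**Figure D2:**
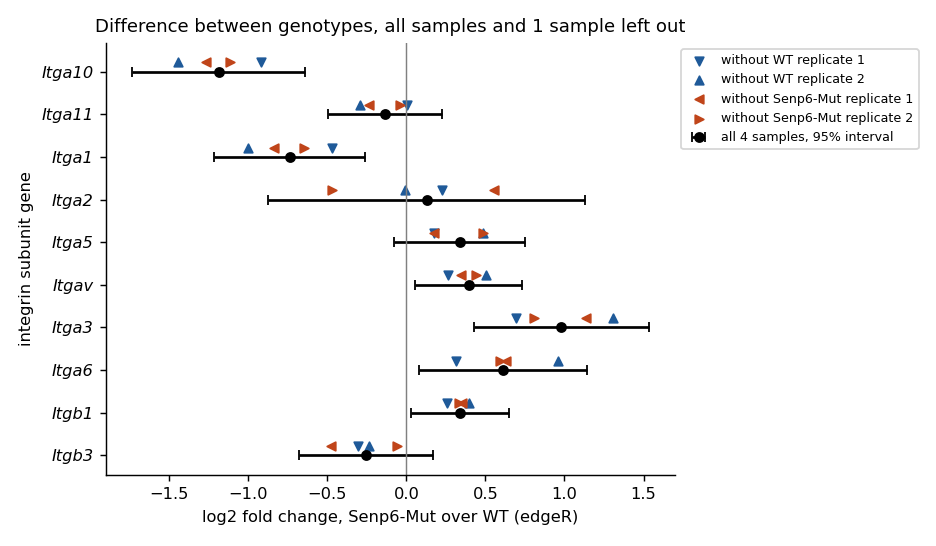
Log2 fold change of Senp6-Mut over WT from edgeR for each member (black point, with its 95% interval) and the values with 1 sample left out (triangles). The values without WT replicate 1 and without WT replicate 2 stand furthest apart for Itga6 (0.31 and 0.96) and Itga3 (0.69 and 1.31), and those of Itga11 and Itga2 lie on both sides of 0.

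Summed over each class, the collagen-binding alpha chains had an RPKM of 75.4 and 63.3 in WT and of 64.3 and 58.2 in Senp6-Mut, replicates 1 and 2, so the groups overlapped (log2 ratio -0.18, exact permutation p = 0.667). The fibronectin-binding chains summed to 100.5 and 130.05 in WT and to 162 and 139 in Senp6-Mut (log2 ratio 0.40, exact permutation p = 0.3333). The laminin-binding chains summed to 25.2 and 41.0 in WT and to 56.0 and 68.3 in Senp6-Mut, a log2 ratio of 0.94 (exact permutation p = 0.3333, the smallest the design allows). Leaving out a sample moved the collagen ratio between -0.30 (without WT replicate 2) and -0.05 (without WT replicate 1), and the fibronectin ratio between 0.58 and 0.21 for the same samples. The laminin ratio ran from 0.59 without WT replicate 1 to 1.29 without WT replicate 2.

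As a share of the summed RPKM of the 8 alpha chains, the laminin-binding pair made up 12.5% and 17.5% in WT replicates 1 and 2 and 19.8% and 25.7% in Senp6-Mut replicates 1 and 2. The collagen-binding chains made up 37.5% and 27.0% in WT and 22.8% and 21.9% in Senp6-Mut, with the second control nearer to the mutants than to the first control. The fibronectin-binding pair held between 49.98% and 57.4% in every sample, and the groups overlapped. Itga10 alone was 1.98% and 1.24% of the alpha chains in WT and 0.573% and 0.563% in the mutants. The summed RPKM of 12 alpha chains that can pair with Itgb1, the 8 members with Itga4, Itga7, Itga8 and Itga9, was 1.36 and 1.33 times that of Itgb1 in WT and 1.35 and 1.23 times in Senp6-Mut.

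**Figure D3:**
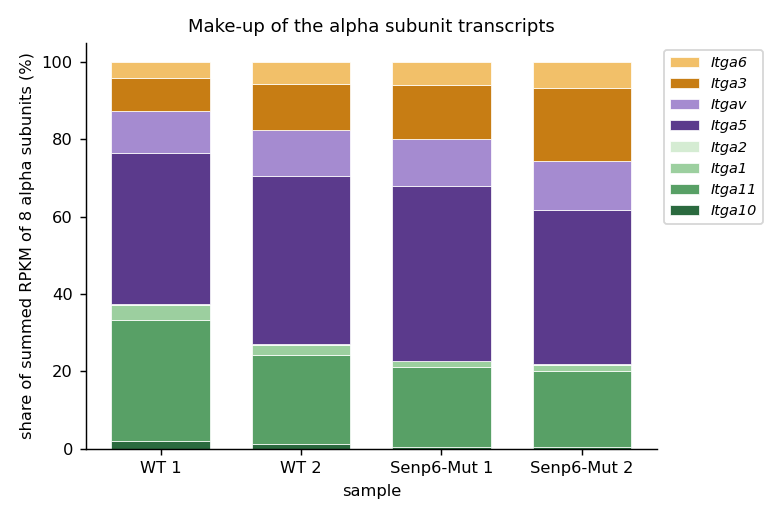
Share of each alpha subunit in the summed RPKM of the 8 alpha subunits, in percent, with 1 stacked bar per sample. The laminin-binding Itga3 and Itga6 (orange) run from 12.5% in WT replicate 1 to 25.7% in Senp6-Mut replicate 2 across the bars, while the collagen-binding chains (green) hold 37.5% and 27.0% in WT and 22.8% and 21.9% in the mutants.

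A list of the other integrin subunits held 17 genes, of which 16 were in the files and 13 passed the filter on low counts. edgeR called 0 of the 13 at an adjusted p under 0.05. Both mutants were above both controls for 7 and below for 2, where 28.3% and 19.2% of all tested genes lay those ways. Itgb6 passed the filter on low counts only through the mutants, and the other 12 genes had 6 above and 2 below. The median log2 fold change was 0.24 (0.21 without Itgb6), against 0.23 for the 10 members and 0.0097 for all tested genes. Itgb5, which pairs with Itgav to bind vitronectin, was the most abundant, with an RPKM of 99.1 and 90.2 in WT and of 112 and 108 in Senp6-Mut. Its level was 14.4 to 24.2 times that of Itgb3 in the same sample, and it was the most abundant beta chain after Itgb1.

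Itga7, a laminin receptor chain of muscle, had an RPKM of 3.57 and 2.77 in WT and of 5.63 and 6.65 in Senp6-Mut (log2 fold change 0.91, edgeR adjusted p = 0.113). Itga8, a chain of smooth muscle and mesenchyme that binds nephronectin, had 1.17 and 0.715 in WT and 1.72 and 2.90 in Senp6-Mut (log2 fold change 1.25, edgeR adjusted p = 0.167). Itga9, which binds tenascin and osteopontin, went the other way, with 11.9 and 9.63 in WT and 7.18 and 6.14 in Senp6-Mut (log2 fold change -0.73, edgeR adjusted p = 0.126). DESeq2 gave these 3 genes an adjusted p of 0.0116, 0.0256 and 0.0113.

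Itga4 (log2 fold change 0.70, edgeR adjusted p = 0.194), Itgb8 (0.66, edgeR adjusted p = 0.252) and Itgb4 (0.68, edgeR adjusted p = 0.393) were higher in both mutants at RPKM values of 0.503 to 2.85. For Itgb4, Senp6-Mut replicate 1 at 1.535 was almost level with WT replicate 1 at 1.529, while Senp6-Mut replicate 2 had 2.85. The leukocyte chain Itgam had 11 to 25 reads per sample, fewer in the mutants, and Itgb6 had 22 and 19 reads in the mutants and 4 and 0 in WT. Itga2b, Itgb7, Itgae and Itgb2 overlapped between the groups, with log2 fold changes from -0.24 to 0.24.

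Integrins act through adaptors that tie their tails to actin. Of 30 listed activators and adaptors, 29 were tested and edgeR called 0 at an adjusted p under 0.05. Both mutants were above both controls for 15 and below for 3, against 28.3% and 19.2% of all tested genes. The RPKM of these counts was not rescaled by the TMM factors. The median log2 fold change was 0.14. Lims2 (PINCH2), part of the complex with integrin-linked kinase, had the smallest p, with an RPKM of 3.58 and 2.40 in WT and of 8.52 and 7.82 in Senp6-Mut (log2 fold change 1.41, edgeR adjusted p = 0.0917). Zyx, a protein of tensioned adhesions, had 264 and 310 in WT and 385 and 451.5 in Senp6-Mut (log2 fold change 0.50, edgeR adjusted p = 0.167), and Kank1 a log2 fold change of 0.53 (edgeR adjusted p = 0.173). On the lower side, Tln2, the less abundant talin, had 10.9 and 9.85 in WT and 7.56 and 5.75 in Senp6-Mut (log2 fold change -0.68, edgeR adjusted p = 0.150). The others of that side were Fermt3, the kindlin of blood cells, at a log2 fold change of -1.58 (edgeR adjusted p = 0.170) and Sharpin at -0.16 (edgeR adjusted p = 0.658). Fermt3 had only 27 and 26 reads in WT and 13 and 10 in Senp6-Mut. The main talin Tln1 had an RPKM of 93.5 to 107 with overlap between the groups.

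The ligands of each class were compared beside their receptors, as differences on the log2 scale. Of the 18 listed collagens 17 were tested, with 12 below in both mutants and 0 above, against 19.2% and 28.3% of all tested genes. Their median log2 fold change was -0.61. The cartilage collagens had the smallest p, with Col9a1 at -1.85 (edgeR adjusted p = 0.0739), Col11a2 at -2.12 (edgeR adjusted p = 0.0739) and Col9a3 at -1.81 (edgeR adjusted p = 0.0833). Col2a1, the main cartilage collagen and a ligand of the Itga10 receptor, had an RPKM of 609 and 659 in WT and of 334 and 445 in Senp6-Mut (edgeR adjusted p = 0.114). Col2a1, Col9a1, Col9a2 and Col11a2 are also on the list of chondrocyte markers, and Col1a1 and Col3a1 on that of fibroblast and mesenchymal markers. Col10a1, Col4a1 and Col4a2 had positive differences of 0.65, 0.09 and 0.08, with overlap between the groups.

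Fibronectin itself (Fn1) had an RPKM of 738 and 747 in WT and of 864 and 852 in Senp6-Mut, a log2 fold change of 0.17 (95% interval -0.14 to 0.48, edgeR adjusted p = 0.605). Of 15 tested fibronectin and RGD ligands, both mutants were above for 9 and below for 4, against 28.3% and 19.2% of all tested genes. Their median log2 fold change was 0.43. Thbs1 (thrombospondin) at 1.08 (edgeR adjusted p = 0.0775), Ctgf (CCN2) at 1.53 (edgeR adjusted p = 0.0833) and Fbln5 at 0.70 (edgeR adjusted p = 0.0885) had the smallest p among those higher. Comp, a cartilage matrix protein, at -1.68 (edgeR adjusted p = 0.142), Ibsp, of bone, at -2.48 (edgeR adjusted p = 0.263) and Fbn1 at -0.60 (edgeR adjusted p = 0.281) had the smallest p among those lower, Edil3 at -0.41 (edgeR adjusted p = 0.371) being the other. Ibsp had an RPKM of 70.7 and 16.7 in WT and of 4.62 and 11.8 in Senp6-Mut, so WT replicate 1 stood far above the other samples. Comp is also on the list of chondrocyte markers and Ibsp on that of osteoblast markers.

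Of 12 tested laminin genes and nidogen, both mutants were above for 7 and below for 1, against 28.3% and 19.2% of all tested genes. Their median log2 fold change was 0.24. Lamc3 and Lamb3 passed the filter on low counts only through the mutants, and the other 10 genes had 5 above, 1 below and a median of 0.07. Lama5, the alpha chain of the laminins that the receptors of Itga3 and Itga6 bind best, had an RPKM of 1.77 and 1.77 in WT and of 6.03 and 7.14 in Senp6-Mut. In edgeR its log2 fold change was 1.85 ± 0.144 (standard error), and its adjusted p of 0.0512 was the smallest of all tested genes. Lamc3, a rare gamma chain, had 4 and 6 reads in WT and 16 and 57 in Senp6-Mut (edgeR adjusted p = 0.204). Lama4, the abundant mesenchymal alpha chain, was lower in both mutants (-0.47, edgeR adjusted p = 0.326), while Lama3 and Lamc1 overlapped between the groups. No list had a gene past an adjusted p of 0.05 in edgeR. DESeq2 called 2 of 29 adaptors (Lims2 and Zyx) higher and 1 (Tln2) lower. It called 7 of 17 collagens lower, 6 of 15 RGD ligands higher and 2 of 12 laminin genes and nidogen higher. Of all tested genes DESeq2 called 3.11% higher and 1.89% lower.

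**Figure D4:**
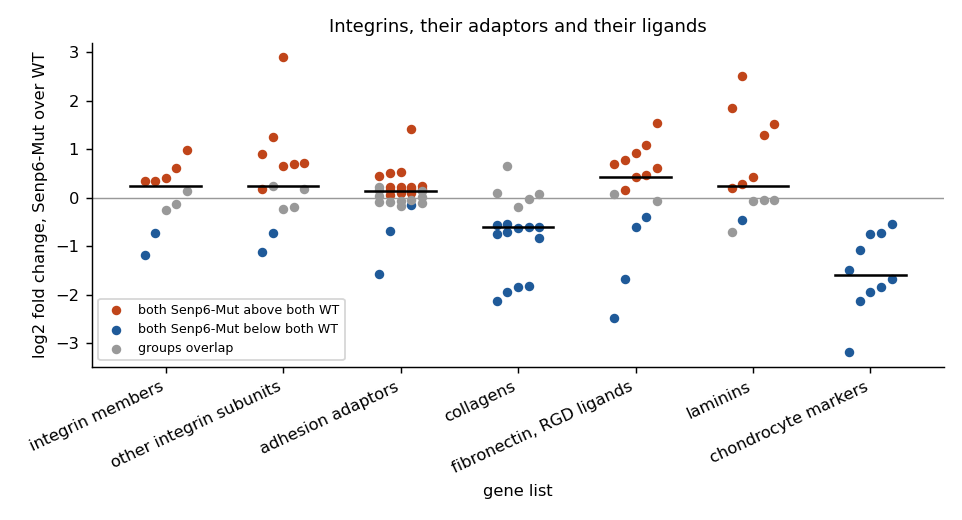
Log2 fold change of Senp6-Mut over WT from edgeR for the tested genes of each list, with 1 point per gene coloured by whether the samples of the groups overlap in RPKM, and a bar at the median. The collagens and chondrocyte markers lie mostly below 0 (medians -0.61 and -1.59), while the integrin members have a median of 0.23.

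Markers of cell identity also differed between the groups. Of 10 chondrocyte markers, all 10 were below in both mutants, where 19.2% of all tested genes lay below and 28.3% above. Their summed RPKM was 870 and 858 in WT and 411 and 547 in Senp6-Mut, and their median log2 fold change was -1.59. Matn1, a defining matrix protein of mature cartilage, had an RPKM of 2.71 and 1.81 in WT and of 0.145 and 0.371 in Senp6-Mut. Matn1 passed the filter on low counts only through WT, and the other 9 had a median of -1.498. Sox9, the master transcription factor of chondrocytes, had an RPKM of 45.6 and 31.3 in WT and of 24.7 and 23.1 in Senp6-Mut. Col1a1, typical of fibroblasts and bone, had an RPKM of 7253 and 4961 in WT and of 4828 and 3311 in Senp6-Mut. It was also below in both mutants, and above the 334 to 659 of Col2a1 in every sample. The cultures thus held cartilage transcripts in both groups, at a lower level in the mutants and beside more Col1a1 than Col2a1. The 10 markers of striated muscle, which expresses Itga7, were above in both mutants for 8 genes, with a summed RPKM of 94.3 and 32.3 in WT and of 158 and 178 in Senp6-Mut. The 8 epithelial markers, of which 4 were tested and higher in both mutants, summed to 4.30 and 10.8 in WT and to 21.6 and 27.7 in Senp6-Mut, almost all of it from Krt18 and Krt8, and the other tested genes, Epcam and Dsp, passed the filter only through the mutants, while Krt5, Krt14 and Cdh1 were at or under 0.253. The 8 osteoblast markers summed to 187 and 83.3 in WT and to 31.9 and 53.5 in Senp6-Mut, and the listed macrophage markers to 23.3 and 20.8 in WT and to 11.4 and 16.0 in Senp6-Mut. Of the 7 tested macrophage markers, 5 were below in both mutants, Cd14 was above in both and Cd68 overlapped. Of the 8 fibroblast and mesenchymal markers, 2 were above in both mutants (Thy1 and Prrx1) and 3 below (Col1a1, Col3a1 and Dcn). The endothelial markers summed to 1.04 to 1.75 and the listed blood and platelet markers to 2.74 to 5.64. The part of these cells in the integrin differences was not tested.

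Over the 4 samples, the genes with the pattern nearest to Itgb1 were Abhd13, 1700017B05Rik, Morc3, Frg1 and Pld1, at a Euclidean distance of 0.0181 to 0.0293 between log2 counts scaled to library size and centred on their mean. Those nearest to Itga10, the member with the smallest p, were Panx3, Pi15, Tm7sf2, Ebf1 and Tek, at a distance of 0.0592 to 0.155. Tek, a receptor of endothelium with 16 to 46 reads per sample, is also on the list of endothelial markers. Of the 5 tested genes of that list, Tek was below in both mutants, Kdr was above in both, and 3 overlapped. Among all tested genes, 19.2% lay below and 28.3% above. Panx3 is a channel protein of prehypertrophic chondrocytes and had an RPKM of 0.756 and 0.486 in WT and of 0.179 and 0.155 in Senp6-Mut. With 4 samples and 14123 genes such neighbours are a description only.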

How the data were processed

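RNA of cultured rib chondrocytes was sequenced by a service as 2 Senp6-Mut and 2 WT samples, and the labels name both Ion Proton and Illumina protocols. The authors deposited, per sample and gene, the read count without normalization, the RPKM, which equals the count divided by gene length and by all reads counted on genes, and how many percent of the gene was covered by reads. Genes without a read are not listed and were given a count of 0. The submitters' processing notes name the build mm9 and SAMtools, while the aligner and the counting tool are not given in the sources used here. The RefSeq and GENCODE tables are of GRCm38, so they served for promoters and neighbouring genes only, and no coordinate was joined to the counts.

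Genes needed 10 or more counts in 2 or more samples, which kept 14123. On these, edgeR 4.0.16 under R 4.3.3 gave quasi-likelihood tests with robust dispersion and TMM factors of 0.966 to 1.03, adjusted by Benjamini-Hochberg. Each standard error is the log2 fold change over the root of F. Lists were described by counts and medians, and class sums were compared by exact permutation. Alternatives were DESeq2 1.42.0, RLE and upper-quartile factors, 2 other filters, limma 3.58.1 on log2(RPKM + 1) and log2(RPKM + 0.1), a replicate block, and fits without each sample in turn. The code was tested on simulated data with 200 changed genes.

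In the shallowest sample, a 2 kb gene with 10 reads has an RPKM of 0.238. Between replicates, chi-square per degree of freedom reached 50.3 (WT) and 24.1 (Senp6-Mut), so the samples were not repeats of a library.

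Genes named were all members, the other integrin subunits kept by the filter, the 3 smallest p in each direction of the adaptor and ligand lists, the 5 nearest patterns to Itgb1 and to the member with the smallest p, Senp6 and markers, and 1 gene that the rule names is not reported here. Xist, Fn1, Col2a1, Tln1, Edil3 and Lamb3 were named after their values were seen. The members and lists were chosen with earlier results of these data known. Lamb1-1 and Adgre1 are other names of the listed Lamb1 and Emr1.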

Additional observations from a re-analysis of the deposited data

How the results depend on the processing

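Of 120 refits of single members, 104 kept the direction and the side of the threshold of the edgeR fit, 13 came under an adjusted p of 0.05 with the same direction, and 3 changed direction. Those 3 refits were of Itga2 (-0.47 without Senp6-Mut replicate 2 and -0.0080 without WT replicate 2) and Itga11 (0.0022 without WT replicate 1). Over all fits with a sample left out, Itga2 ran from -0.47 to 0.55 on the log2 scale and Itga11 from -0.29 to 0.0022. DESeq2 called 439 genes higher and 267 lower, 3 members among them. Without a filter on low counts 225 were higher and 61 lower, with 1 member. With a sample left out, the counts ran from 96 to 1331 higher and from 47 to 1492 lower, with 0 to 5 members, both extremes of the upper end being without WT replicate 2. By RPKM with a sample left out, the mutants were above the controls for 5 to 6 members and below for 3 to 4. With fewer samples the groups separate more easily for any gene, and the share of all genes was not computed. RLE or upper-quartile factors, at least 10 counts in every sample, and limma on either RPKM scale called 0 genes, with a smallest adjusted p of 0.0533 to 0.0737. The cause of these differences between fits was not tested.

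The replicate number was tried as a block. The replicate differences of the genotypes had a correlation of -0.0655 across genes, so the numbers were not taken to pair the samples. The block gave 84 genes higher and 33 lower, and 0 members (adjusted p = 0.0530 for Itga3 and 0.0778 for Itga10 in edgeR).

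With 2 samples a group, the spread within groups rests on few values. Itga2, at 43 to 84 reads, was the least precise.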
